A study of Homo sapiens with 6 samples.

Results

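Glypicans and syndecans are the main families of heparan sulfate proteoglycans on the surface of animal cells. The genes described here were chosen by symbol, as every glypican and syndecan gene, and all 10 of them (6 glypicans and 4 syndecans) are among the 27672 genes of the expression table. Their transcript levels were compared between H9 human embryonic stem cells (hESCs, an established line) on day 0 and neuromesodermal progenitor-like (NMP-L) cells made from them by day 3, with 3 libraries of polyadenylated RNA for each. The labels describe the hESCs as untreated and kept without feeders on fibronectin in DEF medium, to which bFGF (30 ng/ml) and Noggin (10 ng/ml) had been added, whereas the study's methods name TESR medium on Geltrex. The NMP-L cells had been in neurobasal medium with N2 and B27 supplements, bFGF at 20 ng/ml and, at 3 µM, CHIR99021, a compound that activates Wnt signalling by inhibiting the kinase GSK3. For the onward course to neural progenitors the methods add BMP and TGFβ inhibitors from day 2, before the day of sampling, and whether the NMP-L libraries had them is not given in their labels. Noggin, in the hESC medium of the labels, is itself a BMP inhibitor. Both groups are wild type and come from 1 cell line, so that the libraries stand for repeats of that line rather than for different donors. The labels call them biological replicates without saying how the cultures were separated, and the p-values given here measure the spread between these libraries.

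A heparan sulfate proteoglycan is a protein that carries long, sulfated sugar chains. Fibroblast growth factors bind these chains together with their receptor tyrosine kinases, and Wnt, Hedgehog and BMP ligands bind them as well, so the proteoglycans act as coreceptors and shape how far ligands spread. Glypicans are held in the outer leaflet of the membrane by a glycosylphosphatidylinositol (GPI) anchor and have a globular, disulfide-bonded core. In vertebrates GPC1, GPC2, GPC4 and GPC6 form one group of related sequences and GPC3 and GPC5 the other. Syndecans cross the membrane and end in a short cytoplasmic tail that binds PDZ proteins and links to the actin cytoskeleton. SDC1 and SDC3 resemble each other, as do SDC2 and SDC4.

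Both families held genes that rose and genes that fell. GPC4 and GPC3, the glypicans with the highest levels, fell by about 2-fold or more in NMP-L cells on the scale of the count test, and GPC2 and SDC2 fell as well, by smaller amounts. SDC4, the syndecan with the highest level, rose together with SDC3, GPC6 and, at the edge of the threshold, GPC1. SDC1 did not pass the test, and GPC5 was close to the limit of detection in every library. The summed glypican level dropped from 561 ± 45.8 TPM in hESCs to 317 ± 11.2 TPM in NMP-L cells (SD, n = 3 each), while the summed syndecan level went from 174 ± 3.84 to 214 ± 10.6 TPM. TPM is a unit scaled for transcript length and to the same total in each library, so it allows different genes to be set side by side.

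Counts summed to between 19454543 and 23036426 per library, and the floor of detection was set at 3 counts, which is 0.13 to 0.154 CPM (a count divided by its library total and put on a common scale). This floor covers counting error only, while the intervals of fold changes given below include the spread between libraries. The labels were checked against marker genes. The pluripotency genes POU5F1 and NANOG were at 1990 ± 68.4 and 93.1 ± 6.42 TPM in hESCs and at 1127 ± 29.1 and 16.5 ± 0.612 TPM in NMP-L cells, and the caudal progenitor gene T had 0, 0 and 2 counts in hESCs against 537, 293 and 629 in NMP-L cells. Of the 8 genes of the NMP list 5 were higher and SOX2 was not called, but CYP26A1 and FGF17 were lower, at 15.8 ± 2.41 and 8.14 ± 1.70 TPM in hESCs and 0.33 ± 0.213 and 1.15 ± 0.465 TPM in NMP-L cells. Among markers of other cells, the endoderm list summed to between 2.06 and 3.42 TPM in hESCs and between 14 and 26 TPM in NMP-L cells. Of its 5 genes 2 were tested and 1 was higher (FOXA2). Its defining gene SOX17 had no more than 1 count in any library. The neural progenitor list went from between 1.66 and 2.51 to between 6.13 and 7.91 TPM. Of its 3 genes 2 were tested, and only SOX1 was higher, from 0.203 to 5.94 TPM. IRX3 was not called (1.68 to 1.28 TPM). PAX6 was not tested and had 3, 8 and 7 counts in hESCs and 1, 0 and 0 in NMP-L cells. The neural crest and mesenchyme list went from between 423 and 477 to between 72.6 and 74.7 TPM (4 of 5 lower, 1 higher). COL1A1 (338 to 29.7 TPM) and COL1A2 (87.2 to 38.8 TPM) held most of this sum, and TWIST1 was the gene that rose. The presomitic mesoderm list lay between 6.19 and 8.13 TPM in hESCs and between 4.41 and 5.63 TPM in NMP-L cells. Of its 4 genes 2 were tested, with TBX6 lower (6.59 to 2.99 TPM) and MESP2 not called. The untested genes had more counts in NMP-L cells. MSGN1 had 0, 0 and 0 counts in hESCs against 7, 4 and 2, and MESP1 had 1, 0 and 4 against 6, 8 and 5. The part of these cells in the results below was not tested. In such bulk RNA, fewer cells with a transcript and less of it per cell cannot be told apart.

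Promoters are shown for the highest glypican (GPC4), the highest syndecan (SDC4) and the glypican with the largest rise (GPC6). RefSeq windows (build GRCh38.p14) were found for 8 of the 10 genes, SDC1 having 2 of them, but not for GPC3 and SDC2. Each sequence below covers the 250 bases before the annotated start of transcription, read 5′ to 3′ on the strand of the gene. Capitals mark matches on either strand to 3 motifs, the GC box bound by SP factors (GGGCGG), the core bound by TCF/LEF factors downstream of Wnt (CTTTGA) and the TATA box (TATAAA).
GPC4 (chrX:133415490-133415739, minus strand): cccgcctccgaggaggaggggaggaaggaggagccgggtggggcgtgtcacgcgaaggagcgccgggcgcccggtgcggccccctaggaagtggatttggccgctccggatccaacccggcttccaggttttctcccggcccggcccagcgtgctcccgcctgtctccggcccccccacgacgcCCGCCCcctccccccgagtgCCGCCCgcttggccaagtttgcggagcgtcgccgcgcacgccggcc
SDC4 (chr20:45348425-45348674, minus strand): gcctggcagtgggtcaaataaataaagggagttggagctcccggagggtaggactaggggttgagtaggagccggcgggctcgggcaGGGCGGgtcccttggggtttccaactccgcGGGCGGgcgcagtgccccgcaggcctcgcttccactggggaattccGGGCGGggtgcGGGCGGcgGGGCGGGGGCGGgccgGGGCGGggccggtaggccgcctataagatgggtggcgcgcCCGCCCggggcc
GPC6 (chr13:93226557-93226806, plus strand): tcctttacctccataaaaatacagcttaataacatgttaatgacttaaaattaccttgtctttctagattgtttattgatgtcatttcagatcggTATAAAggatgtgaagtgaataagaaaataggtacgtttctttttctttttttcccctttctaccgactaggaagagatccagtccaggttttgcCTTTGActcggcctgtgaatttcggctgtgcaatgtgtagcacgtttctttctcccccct

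The windows of GPC4 and SDC4 had a GC content of 76.0% and 73.6% and held 2 and 8 matches to the GC box. The window of GPC6 had a GC content of 37.6%, no GC box, and 1 match each to the TCF/LEF core and the TATA box. GPC6 thus stood apart from the other members in letters, since all 8 of their windows held a GC box and had a GC content from 62.4% (GPC5) to 84.0% (GPC1). Among the 34788 RefSeq windows of the same length, 42.6% held a GC box, 11.2% the TCF/LEF core and 10.8% the TATA box. Besides GPC6, the TATA box was found in the window of GPC5, and the TCF/LEF core in no other. These matches describe letters and do not show that a factor was bound.

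**Figure D1:**
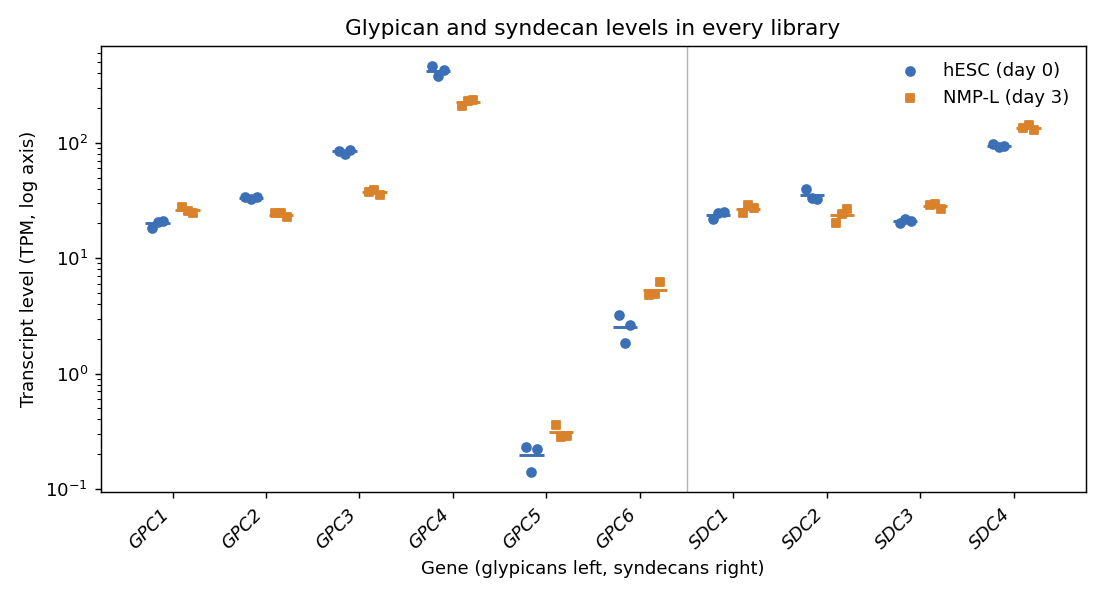
Transcript level in TPM (log axis) of each glypican and syndecan in the 3 hESC libraries (circles) and the 3 NMP-L libraries (squares), with a line at each mean. GPC4 lay highest in both conditions, at 376 TPM or more in hESCs and at 234 TPM or less in NMP-L cells, and GPC5 lowest.

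Levels within a condition were compared by TPM. In hESCs the order was GPC4 (421 ± 42.8), SDC4 (94.1 ± 2.66), GPC3 (84.1 ± 3.09), SDC2 (35.2 ± 4.08), GPC2 (33.6 ± 0.821), SDC1 (23.8 ± 1.85), SDC3 (20.9 ± 0.845), GPC1 (20.0 ± 1.56), GPC6 (2.56 ± 0.702) and GPC5 (0.197 ± 0.0493; SD, n = 3 for each). The ranges of SDC2 and GPC2 overlapped, as did those of SDC3 and GPC1, and the other neighbours were apart. In NMP-L cells GPC4 (224 ± 13.1), SDC4 (135 ± 7.64) and GPC3 (37.1 ± 1.66) kept the first 3 places. Behind them SDC3 (28.3 ± 1.46), SDC1 (26.8 ± 2.18) and GPC1 (25.9 ± 1.43) lay so close that each overlapped the next. GPC2 (23.9 ± 1.15) and SDC2 (23.7 ± 3.39) overlapped as well, above GPC6 (5.32 ± 0.805) and GPC5 (0.310 ± 0.0436). By mean TPM SDC2 thus went from the 4th to the 8th place and SDC3 from the 7th to the 4th. In NMP-L cells, however, the range of SDC2 (20.1 to 26.8 TPM) overlapped those of GPC2, GPC1, SDC1 and SDC3 (26.7 to 29.5 TPM). The order of SDC2 among these genes was therefore not resolved there.

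The change between conditions was tested on counts for all 15517 genes with enough expression by edgeR's quasi-likelihood test, with p-values adjusted by Benjamini-Hochberg over all of them. A gene was called at an adjusted p under 0.05. Of the 10 members 9 were tested and 8 were called, 4 higher and 4 lower in NMP-L cells. Of all tested genes 55.8% were called, 29.1% higher and 26.7% lower, so that calls are common in this comparison. Among the glypicans 2 of the 5 tested rose and 3 fell, and among the syndecans 2 of 4 rose and 1 fell. The median log2 fold change was -0.59 over the tested glypicans and 0.20 over the syndecans, against 0.03 over all tested genes. A called fall of at least 2-fold was seen for 2 of the 9 (GPC3 and GPC4), while 18.6% of all tested genes were called with that size in either direction and 9.18% were called lower with it. GPC4 lay at this limit, so that GPC3 alone passed it without hESC replicate 1 (GPC4 at -0.97) or NMP-L replicate 1 (-0.97), with library sizes only (-0.93), with limma (-0.90) and with a filter of 10 counts in every library (-0.998), and neither passed it relative to GAPDH counts (-0.44 for GPC4 and -0.72 for GPC3). The CPM of the groups did not overlap for 8 of the 9 tested members, against 61.6% of all tested genes.

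**Figure D2:**
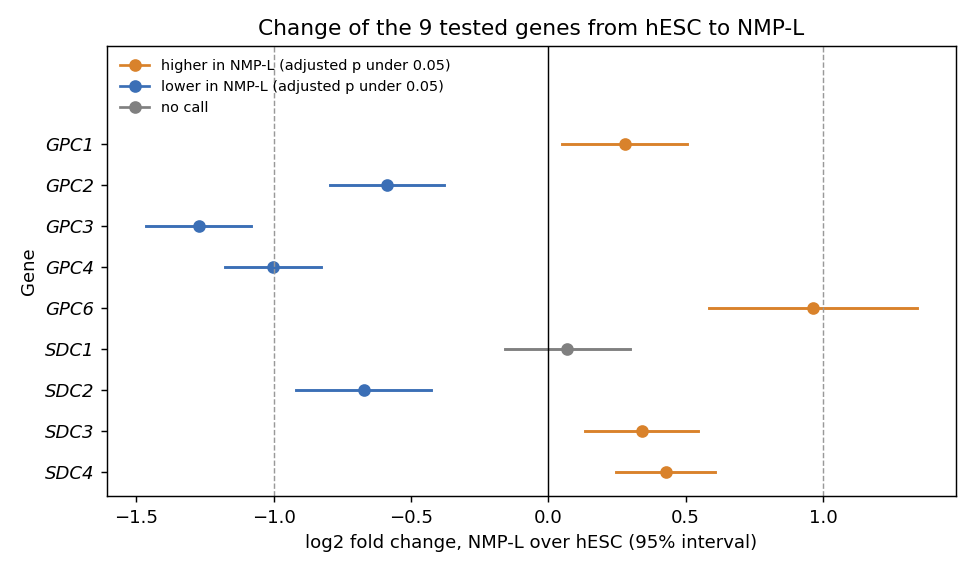
Log2 fold change from hESCs to NMP-L cells (points) with its 95% interval (lines) for the 9 tested genes, from edgeR. The dashed lines mark a change of 2-fold. GPC3 (-1.27) and GPC4 (-1.0) fell most and GPC6 (0.96) rose most, and the interval of SDC1 spans 0.

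GPC4, a glypican known from early embryonic and neural tissue and a coreceptor for FGF and Wnt ligands, is a protein-coding gene on the minus strand of chromosome X (GRCh37, 132434131 to 132549517). Its level was 461, 376 and 426 TPM in the 3 hESC libraries and 209, 229 and 234 TPM in the 3 NMP-L libraries. Every NMP-L library lay below every hESC library, and the hESC libraries were spread more widely. The log2 fold change was -1.0 (standard error 0.08, adjusted p = 1.1e-06 from edgeR), a change close to 2-fold, with a 95% interval from -1.18 to -0.83. GPC4 alone held 74.9 ± 1.59% of the summed glypican TPM in hESCs and 70.8 ± 1.77% in NMP-L cells (SD, n = 3). The fall of the family's sum was not that of GPC4 only, as the 5 other glypicans together went from 140 ± 4.46 to 92.5 ± 2.94 TPM. Among these 5 the largest fall was that of GPC3, from 84.1 to 37.1 TPM, and GPC2 fell too. GPC1 and GPC6 rose.

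GPC3, which binds Hedgehog and Wnt ligands and is mutated in Simpson-Golabi-Behmel overgrowth syndrome, lies next to GPC4 on the same strand of chromosome X (132669773 to 133121127), with 120 kb between the genes. It was measured at 85.3, 80.6 and 86.5 TPM in hESCs and at 37.4, 38.6 and 35.3 TPM in NMP-L cells. The libraries of each condition lay close together and the conditions far apart. This was the largest fall of the 10 genes, as the log2 fold change came to -1.27 (standard error 0.09, adjusted p = 3.5e-07 from edgeR) and a level 2.42-fold higher in hESCs. The ratio of GPC4 to GPC3, which does not depend on how libraries are scaled, lay between 4.66 and 5.40 in hESCs and between 5.60 and 6.62 in NMP-L cells, and the ranges did not overlap.

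GPC2, a glypican of developing neurons (chromosome 7, 99767229 to 99775004, minus strand), was at 33.8, 32.6 and 34.2 TPM in hESCs and at 24.4, 24.6 and 22.5 TPM in NMP-L cells. The values of each condition were narrow and did not overlap those of the other. Its log2 fold change was -0.59 (standard error 0.10, adjusted p = 2.9e-04 from edgeR). Its share of the glypican TPM was 6.0 ± 0.382% in hESCs and 7.54 ± 0.535% in NMP-L cells.

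GPC6, a close relative of GPC4, spans 1181 kb on the plus strand of chromosome 13 (93879060 to 95060274). It had 210, 128 and 176 counts in hESCs and 360, 348 and 474 in NMP-L cells, or 3.23, 1.83 and 2.61 against 4.8, 4.92 and 6.25 TPM. All NMP-L libraries were above all hESC libraries, though hESC replicate 2 and NMP-L replicate 3 stood off from the others of their group. The rise was the largest of the 10 genes by fold (log2 fold change 0.96, standard error 0.17, adjusted p = 5.9e-04 from edgeR) but small in absolute level, as GPC6 made up 0.451 ± 0.0898% of the glypican TPM in hESCs and 1.68 ± 0.223% in NMP-L cells. The antisense genes GPC6-AS1 and GPC6-AS2 were at 0 in all 6 libraries. Whether the counting used strand is not given in the sources used here.

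GPC1, a widely expressed glypican that promotes FGF signalling (chromosome 2, 241375080 to 241407493, plus strand), was at 18.2, 20.6 and 21.2 TPM in hESCs and at 27.5, 25.5 and 24.7 TPM in NMP-L cells. The conditions did not overlap, but the distance between the nearest libraries was short. The log2 fold change was 0.28 (standard error 0.10, adjusted p = 0.039 from edgeR), with a 95% interval from 0.05 to 0.50. The call depended on single libraries and on the scaling, with an adjusted p of 0.14 without hESC replicate 1, 0.075 without hESC replicate 3, 0.13 without NMP-L replicate 1 and 0.094 without NMP-L replicate 2, and the direction turned relative to HPRT1 counts (-0.027).

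GPC5, the sequence relative of GPC3, lies upstream of GPC6 on the same strand of chromosome 13 (92050875 to 93525935), 353 kb away. It had 6, 4 and 6 counts in hESCs and 11, 8 and 9 in NMP-L cells, all slightly above the floor of 3. The counts of the conditions did not overlap, but the gene lay below the expression filter. In the fit with no filter beyond 1 count in total its log2 fold change of 0.57 did not pass (adjusted p = 0.38 from edgeR). The antisense gene GPC5-AS1 had 0 counts in hESCs and 2, 1 and 3 in NMP-L cells, at or under the floor in every library.

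SDC4, the widely expressed syndecan that cooperates with integrins at focal adhesions and binds protein kinase C alpha, lies on the minus strand of chromosome 20 (GRCh37, 43953928 to 43977064). It was at 96.7, 91.4 and 94.3 TPM in hESCs and at 133, 144 and 129 TPM in NMP-L cells. The hESC libraries were close together, and all NMP-L libraries lay above them. The log2 fold change was 0.43 (standard error 0.08, adjusted p = 1.0e-03 from edgeR), a level 1.34-fold higher in NMP-L cells. SDC4 held 54.1 ± 0.525% of the summed syndecan TPM in hESCs and 63.2 ± 1.5% in NMP-L cells (SD, n = 3). With GPC4 falling and SDC4 rising, the ratio of GPC4 to SDC4 went from 4.76, 4.11 and 4.52 in the hESC libraries to 1.57, 1.6 and 1.82 in the NMP-L libraries.

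SDC3, a syndecan of the nervous system (chromosome 1, 31342313 to 31381605, minus strand), was at 20.0, 21.7 and 21.1 TPM in hESCs and at 28.7, 29.5 and 26.7 TPM in NMP-L cells. The groups were well separated on this scale. Its log2 fold change on counts was 0.34 (standard error 0.09, adjusted p = 0.0089 from edgeR).

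SDC2, a syndecan of mesenchymal and neuronal cells (chromosome 8, 97506041 to 97624018, plus strand), was at 39.9, 33.4 and 32.4 TPM in hESCs and at 20.1, 24.1 and 26.8 TPM in NMP-L cells. The libraries varied more than those of the other syndecans, but the highest NMP-L value stayed below the lowest hESC value. It was the one syndecan to fall (log2 fold change -0.67, standard error 0.11, adjusted p = 3.5e-04 from edgeR), and its share of the syndecan TPM was 20.2 ± 1.92% in hESCs and 11.1 ± 1.59% in NMP-L cells. Its relative SDC4 moved the other way.

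SDC1, the syndecan typical of epithelia (chromosome 2, 20400558 to 20425194, minus strand), was at 21.7, 24.4 and 25.3 TPM in hESCs and at 24.6, 29.0 and 26.9 TPM in NMP-L cells. These values overlapped. At a log2 fold change of 0.07, edgeR gave a standard error of 0.10, an adjusted p of 0.60 and a 95% interval from -0.16 to 0.30, so that a change of 2-fold lies outside it and a smaller one within it. The sign turned without hESC replicate 1 (-0.031) and under HPRT1 scaling (-0.24), while under GAPDH scaling SDC1 was called higher (0.63).

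A single-gene check by exact permutation of the libraries (two-sided, on log2 CPM) returned p = 0.1 for the 8 called members and GPC5, which is the lowest p a design of 3 against 3 can reach, and p = 0.6 for SDC1. No member had a fractional count in any library, so RSEM assigned their reads whole, whereas 8.44% of all genes had one. These directions refer to the TMM scaling, which balances rises and falls over all genes. Relative to GAPDH, itself lower in NMP-L cells (log2 fold change -0.55), the median gene shifted by 0.56, 87.5% of all calls were rises (against 52.1%), and 5 members were called higher and 2 lower, with GPC2 (-0.03) and SDC2 (-0.11) no longer called. Relative to HPRT1 the median gene shifted by -0.30, 25.3% of all calls were rises, and 1 member was higher (GPC6) and 4 lower, with SDC3 (0.04) and SDC4 (0.13) no longer called. GPC3, GPC4 and GPC6 kept their direction and their call in each of the 16 alternatives tried.

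**Figure D3:**
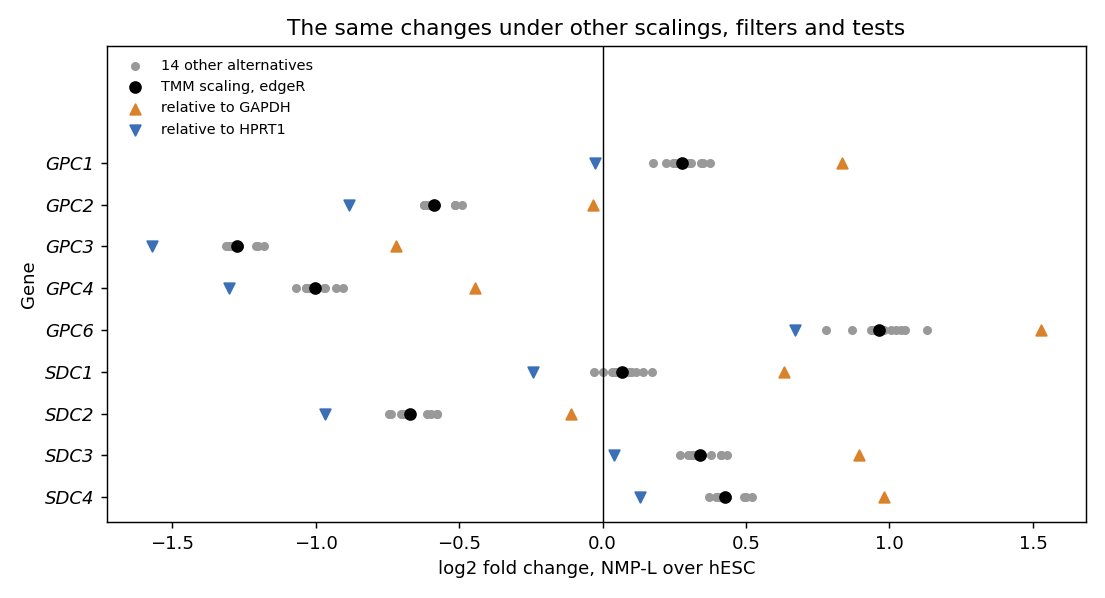
Log2 fold change of the 9 tested genes under edgeR with TMM scaling (black), relative to GAPDH counts (upward triangles), relative to HPRT1 counts (downward triangles) and under 14 other alternatives (grey). GPC3 and GPC4 lie left of 0 and GPC6 right of 0 in all of them, and GPC1 and SDC1 reach both sides.

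**Figure D4:**
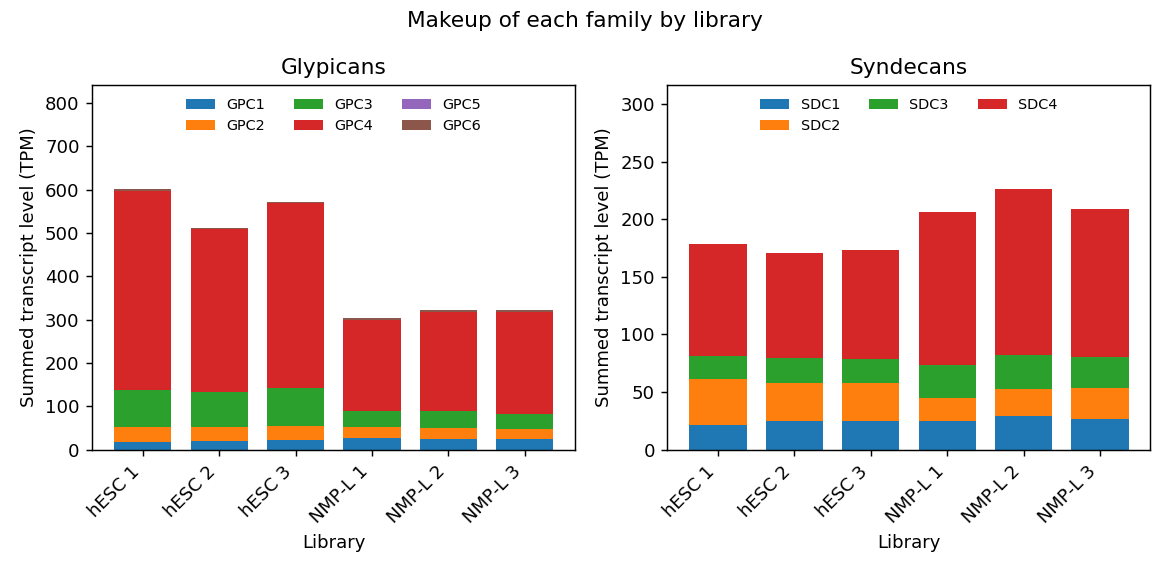
Summed TPM of the glypicans (left) and of the syndecans (right) in each library, split by gene. The glypican bars stand between 511 and 601 TPM in hESCs and between 304 and 323 TPM in NMP-L cells, and the syndecan bars between 171 and 178 and between 207 and 226 TPM.

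Set against each other, the families came closer in level. The summed glypican TPM was 3.37, 2.99 and 3.30 times the summed syndecan TPM in the hESC libraries and 1.47, 1.43 and 1.55 times in the NMP-L libraries. This ratio is taken within a library and is the same under any scaling of libraries. All 10 genes together went from 735 ± 49.3 to 531 ± 19.5 TPM.

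Beyond the core proteins, 9 lists of genes that build, modify, release or bind these proteoglycans were followed, 79 genes in all. Of the 73 tested, 24 were higher and 16 lower in NMP-L cells, or 40 called, beside the 55.8% of all tested genes. Scaling to GAPDH gave 51 rises and 10 falls in these lists, and scaling to HPRT1 gave 9 and 18. The values below are log2 fold changes from the same edgeR fit, and the genes named are the largest calls of each list.

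The genes that remove sulfate from finished chains changed in opposite directions. SULF1 and SULF2 are extracellular enzymes that act on the 6-O position and so change how they bind FGF and Wnt ligands. SULF2 rose by 1.31 (standard error 0.10), from 18.7 ± 1.23 to 49.8 ± 3.35 TPM, and SULF1 fell by 1.13 on the log2 scale (standard error 0.15), from 3.62 ± 0.462 to 1.78 ± 0.244 TPM. The ratio of SULF2 to SULF1 TPM was 4.76, 6.38 and 4.62 in hESCs and 35.2, 23.3 and 27.2 in NMP-L cells. Heparanase, HPSE, and its relative HPSE2 did not pass, and both calls of this list held under GAPDH and HPRT1 scaling.

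Among 16 genes for sulfation and epimerisation inside the Golgi, 13 were tested, 4 rose, 3 fell and 6 were not called. Calls were as common over all tested genes, with 29.1% higher and 26.7% lower. Scaling to GAPDH gave 7 rises and 3 falls in this list, and scaling to HPRT1 gave 3 and 4. NDST1, which starts sulfation of the chain at glucosamine, rose by 0.85, from 36.8 ± 1.38 to 70.8 ± 5.34 TPM. Of the enzymes that add sulfate at the 6-O position, HS6ST1 (-1.01) and HS6ST3 (-1.25) fell and HS6ST2 (0.80) rose. The ratio of HS6ST1 to HS6ST2 TPM went from 5.10, 9.17 and 7.14 in hESCs to 2.52, 1.83 and 1.63 in NMP-L cells. Of the 3-O-sulfotransferases, which make rare, specialised binding sites, HS3ST5 (0.86) and HS3ST4 (0.79) rose and HS3ST2 (-1.77) fell. All were at mean levels of no more than 6.95 TPM. The other tested 3-O-sulfotransferases were not called. NDST4 was at 0 in all 6 libraries. HS3ST3A1 and HS3ST3B1 had fractional counts, as reads of these close copies can be shared.

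The called genes for the sugar linkage and for elongation of the chain changed by less than 2-fold. The counts of calls below stand beside 29.1% of all tested genes called higher and 26.7% called lower. In the list for the sugar linkage to the core protein, FAM20B (0.62) and B3GAT3 (0.62) rose while the xylosyltransferases XYLT1 (-0.47) and XYLT2 (-0.45) fell, with 2 of 6 not called, and relative to GAPDH counts the sign of both falls turned (0.08 and 0.11). Relative to HPRT1 counts neither rise was called (adjusted p = 0.12 for FAM20B and 0.22 for B3GAT3 from edgeR), and XYLT1 was not called with limma (adjusted p = 0.061). Of 5 genes that elongate the chain, EXT2 rose (0.33) and EXTL3 fell (-0.42, or 0.14 relative to GAPDH counts), and EXT1, the partner of EXT2 in the polymerase, did not pass (-0.10, adjusted p = 0.39 from edgeR). EXT2 was not called without hESC replicate 3 (adjusted p = 0.063) or without NMP-L replicate 2 (adjusted p = 0.098), which left 1 called gene in this list. Scaled to HPRT1 counts, EXT2 was not called either (0.03, adjusted p = 0.91 from edgeR). For the supply of precursors, 3 of 7 genes rose and 1 fell. The nucleotide sugar transporters SLC35D1 (1.17) and SLC35D2 (0.51) and SLC35B3 (0.30), a sulfate donor transporter, were higher. PAPSS2, which makes the sulfate donor, was lower (-0.97, 21.3 ± 2.86 to 11.6 ± 1.38 TPM). PAPSS1, which makes the same donor, lay at a higher level and was not called (110 ± 5.19 to 108 ± 3.43 TPM). The donor transporter SLC35B2 was not called either (33.6 to 39.1 TPM). SLC35B3 was at the threshold (adjusted p = 0.044) and lost its call in 11 of the 14 alternatives without a reference gene. SLC35D2 was not called relative to HPRT1 counts (0.22, adjusted p = 0.40 from edgeR).

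**Figure D5:**
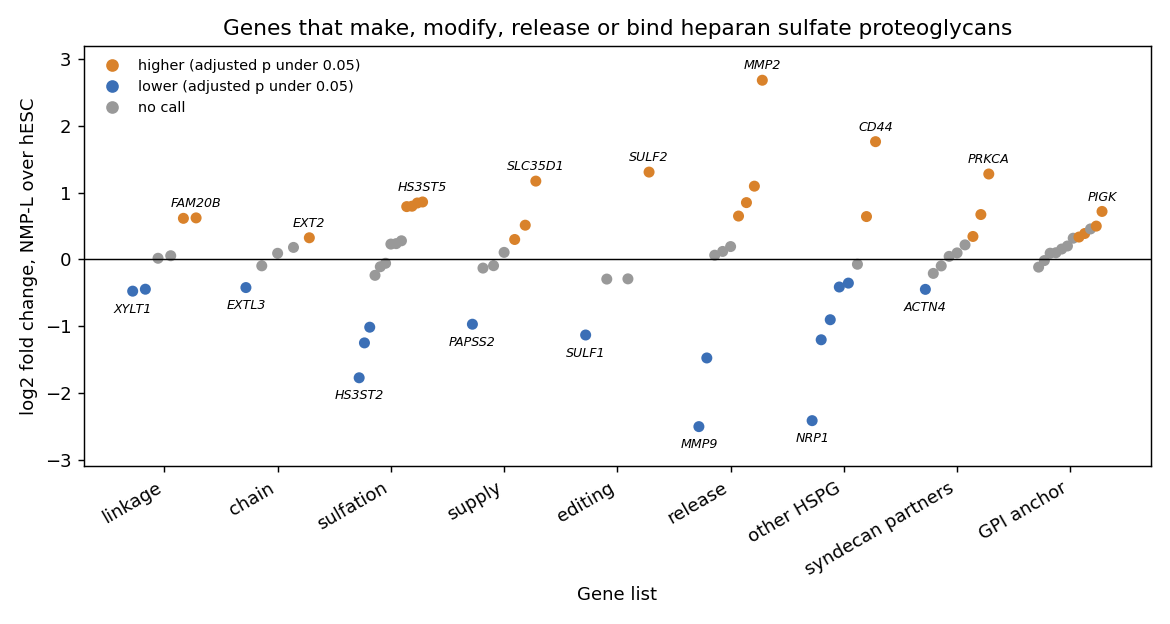
Log2 fold change of each tested gene of the 9 lists, coloured by call, with the outermost called genes named. MMP2 (2.69) and CD44 (1.77) reach highest and MMP9 (-2.50) and NRP1 (-2.42) lowest, and the GPI anchor list has no gene called lower.

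For release of the core proteins from the cell, 10 genes were listed, 9 were tested, 4 rose and 2 fell. Over all tested genes 29.1% were called higher and 26.7% lower. Scaling to GAPDH gave 7 rises and 2 falls in this list, and scaling to HPRT1 gave 2 and 2. NOTUM, a secreted enzyme that was first described as cutting glypicans off the membrane and that removes the lipid from Wnt proteins, had 18, 7 and 11 counts in hESCs and 41, 22 and 28 in NMP-L cells, a low level with a rise of 1.10 (adjusted p = 0.026 from edgeR). It was not called without hESC replicate 2 (adjusted p = 0.11), hESC replicate 3 (0.094) or NMP-L replicate 1 (0.11). Relative to HPRT1 counts NOTUM was not called either (0.84, adjusted p = 0.068 from edgeR). GDPD5, a membrane enzyme that cleaves GPI anchors, fell by 1.48 on the log2 scale. FURIN, a convertase that cuts glypican core proteins, rose by 0.85, and the gelatinases went opposite ways, with MMP2 up by 2.69 (7.83 ± 0.656 to 54.2 ± 1.89 TPM) and MMP9 down (-2.50, 4.36 ± 0.320 to 0.817 ± 0.227 TPM). MMP7 was at 0 in all libraries.

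Of 8 tested genes for other proteins that can carry heparan sulfate 5 were lower, 2 higher and 1 not called, beside 26.7% of all tested genes called lower. Scaling to GAPDH turned this into 3 rises and 3 falls. The basement membrane proteoglycan AGRN fell by 0.90 on the log2 scale, from 95.7 ± 8.12 to 54.7 ± 3.92 TPM, SPOCK1 by 1.20, and NRP1, a coreceptor for VEGF and semaphorins, by 2.42. CD44 (1.77) and TGFBR3, the betaglycan coreceptor of TGFβ (0.64), rose. HSPG2, perlecan, did not pass (-0.07, adjusted p = 0.55 from edgeR).

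Among 9 genes for partners of the syndecan tail, 3 rose, 1 fell and 5 did not pass. Of all tested genes 29.1% were called higher and 26.7% lower. Scaling to GAPDH gave 7 rises and 0 falls in this list, and scaling to HPRT1 gave 1 and 1. PRKCA, the protein kinase C alpha that SDC4 binds, rose by 1.28, from 7.19 ± 0.549 to 18.7 ± 0.966 TPM, and SDCBP, syntenin, the PDZ adaptor of all syndecans, by 0.67, from 77.0 ± 10.2 to 132 ± 16.4 TPM. SYNJ2BP rose by 0.35, though without hESC replicate 3 it was not called (adjusted p = 0.065), and it has fractional counts. The actin crosslinker ACTN4 fell by 0.45 (0.11 higher relative to GAPDH counts). For the GPI anchor that holds glypicans, 4 of 12 genes rose and none fell, with PIGK (0.72), PIGV (0.50) and PIGO (0.39) the largest. Under GAPDH scaling all 12 were called higher, with limma on log2 TPM 8 were, and under HPRT1 scaling edgeR called none.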

How the data were processed

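Polyadenylated RNA of 3 hESC and 3 NMP-L libraries was read from one end over 76 bp. The submitters' processing notes name cutadapt 1.9.1, STAR 2.5.2a, RSEM 1.3.0 and DESeq2 1.12.3 and the build hg19, with no role given. The annotation is not given in the sources used here. Per gene, the authors deposited expected counts from RSEM, not normalized between libraries, and TPM values, scaled by RSEM for transcript length and to a common total per library.

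Expected counts were rounded and analysed with edgeR 4.0.16 in R 4.3.3 (filterByExpr with a minimum count of 10, TMM, glmQLFit and glmQLFTest on condition). The standard error is the log2 fold change divided by the square root of F. Intervals of 95% use the test's degrees of freedom. Exact permutation tests used log2(CPM + 0.1), with 0.5 and 1 as alternative pseudocounts. The other alternatives used limma 3.58.1, DESeq2 1.42.0 and further scalings, filters and left-out libraries. Figures were drawn with matplotlib 3.10.9. The fit was tested on simulated data. Gene positions come from GENCODE release 44 on GRCh37, the build of hg19, and promoters from RefSeq.

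Genes named are the 10 members and, for each list, up to 3 called rises and 3 called falls of the largest size. EXT1, HPSE, HPSE2, HSPG2, NDST4, MMP7, HS3ST3A1, HS3ST3B1, HS3ST4, PAPSS1, SLC35B2 and the overlapping genes were named after their values were seen. Members and lists were chosen with earlier results of these data known.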

Additional observations from a re-analysis of the deposited data

How the results depend on the processing

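Of 144 refits of single glypicans and syndecans under the alternatives, 128 kept the direction and the side of the threshold, 12 lost the call, 1 gained it and 3 changed sign. GPC1 was not called with RLE size factors (adjusted p = 0.060), with upper-quartile scaling (0.082), with DESeq2 (0.062) or in the 4 fits without a library given above, and changed sign relative to HPRT1 counts (-0.027). SDC1, never called except relative to GAPDH counts, changed sign relative to HPRT1 counts (-0.24) and without hESC replicate 1 (-0.031), its range over the left-out libraries being -0.031 to 0.12. The number of called members was 5 relative to HPRT1 counts, against 8. The number called higher was 1 relative to HPRT1 counts, against 4, and the number called lower was 2 relative to GAPDH counts, against 4. With each library left out in turn, between 7 and 8 members were called, 3 or 4 of them higher and 4 lower. The causes were not tested, apart from the shift of all genes by the reference-gene scalings. Both conditions use the numbers 1 to 3, but no source states that these pair libraries, and the deviations of same-numbered libraries correlated at -0.37, -0.06 and -0.13 across 15517 genes. With the replicate block 7 members were called, GPC1 being lost (adjusted p = 0.11), and 7560 genes in all, against 8653. Other pseudocounts changed no direction in the exact tests. With 3 libraries per condition the exact test cannot fall under 0.1. Depth limits GPC5, HS3ST2 and NOTUM, with at most 11, 22 and 41 counts in any library.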
